A study of Mus musculus with 6 samples.

Results

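The serum amyloid A family was followed in the livers of mice given interleukin-6 (IL-6) or saline. Its members were taken by gene symbol as Saa1, Saa2, Saa3 and Saa4. Each of the 4 genes had 1 probe set, a group of probes along a transcript that is summarised to 1 value, and no probe set was shared with another symbol. They were 4 of 35556 probe sets, and 4 of 19938 genes once 1 probe set was kept per gene. All mice were C57BL6 males, 10 weeks old, that had gone without food for 16 h. The saline group (3 arrays) received saline into the peritoneum, and the IL-6 group (3 arrays) received 100 ng of IL-6 per mouse by the same route. Whole liver was taken 1 h later from both groups, and there was 1 dose and 1 time. The labels do not say in so many words that each array held a separate animal, so p-values cover only the spread among these arrays, which may be technical.

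Serum amyloid A proteins are small apolipoproteins of the acute phase, the change in plasma proteins that follows injury or infection. Hepatocytes make most of the circulating Saa1 and Saa2, which travel on high-density lipoprotein (HDL) and whose fragments can deposit as amyloid. Saa3 is also made outside the liver, by macrophages and adipocytes, and Saa4 is known as the constitutive member. IL-6 signals through its receptor, the chain gp130 and the transcription factor STAT3, and C/EBP and NF-kappaB factors are further known regulators of Saa promoters.

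The 4 genes lie together on mouse chromosome 7. In the gene order of RefSeq on assembly GRCm38.p6, Saa3, Saa4, Saa1 and Saa2 follow each other, with the lncRNA Gm31882 between Saa3 and Saa4 and the pseudogene Saa-ps between Saa4 and Saa1. Saal1 stands before the cluster and Hps5 after it. RefSeq lists Saa2 among the synonyms of Saa1, and Saa1 among those of Saa2, so older names of the pair can be exchanged. Here the genes were identified by gene ID, 20208 for Saa1 and 20209 for Saa2.

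The 250 bases before the RefSeq transcript start of each gene are printed so that the promoters can be compared. Any link between these sequences and the responses was not tested. The sequences are from RefSeq on build GRCm38.p6, 5′ to 3′ on the strand of the gene. The window of Saa1 is chr7:46742981-46743230 on the minus strand, that of Saa2 chr7:46751583-46751832 on the plus strand, that of Saa3 chr7:46715677-46715926 on the minus strand and that of Saa4 chr7:46732604-46732853 on the minus strand. Capitals mark matches to the C/EBP motif TTGCNNAA on either strand.
Saa1: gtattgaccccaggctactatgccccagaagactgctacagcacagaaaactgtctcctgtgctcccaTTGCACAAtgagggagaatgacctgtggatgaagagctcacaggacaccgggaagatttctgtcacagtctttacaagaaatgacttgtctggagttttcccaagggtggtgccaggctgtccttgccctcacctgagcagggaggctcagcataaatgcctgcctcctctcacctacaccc
Saa2: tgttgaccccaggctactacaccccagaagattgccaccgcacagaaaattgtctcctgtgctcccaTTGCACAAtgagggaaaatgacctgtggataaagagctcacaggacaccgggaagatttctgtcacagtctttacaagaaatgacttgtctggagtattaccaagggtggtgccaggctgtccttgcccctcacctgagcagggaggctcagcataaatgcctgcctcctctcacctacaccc
Saa3: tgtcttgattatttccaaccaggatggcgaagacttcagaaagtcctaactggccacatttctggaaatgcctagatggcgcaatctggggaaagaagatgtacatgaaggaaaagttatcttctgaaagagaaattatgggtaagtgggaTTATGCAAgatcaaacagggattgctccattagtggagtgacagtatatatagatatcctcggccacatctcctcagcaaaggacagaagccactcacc
Saa4: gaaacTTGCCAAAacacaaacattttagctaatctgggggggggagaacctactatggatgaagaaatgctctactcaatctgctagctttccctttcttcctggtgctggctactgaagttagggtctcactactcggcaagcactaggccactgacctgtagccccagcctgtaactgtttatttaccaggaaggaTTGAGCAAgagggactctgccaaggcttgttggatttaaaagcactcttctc

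Saa1 and Saa2, which are transcribed away from each other, had nearly the same promoter. In a global alignment 238 of 251 columns were identical (94.8%), with 11 substituted bases and 2 gapped columns. Identity in the other 5 pairs of promoters ran from 43.8% to 48.5%. Each of the 4 windows held the C/EBP motif, which 9.56% of all 32851 promoter windows of this length hold. Saa1 and Saa2 carried it in the same letters, TTGCACAA, from base -182 to -175 and from base -183 to -176 before the start. In Saa3 the match read TTATGCAA on the strand of the gene, from base -99 to -92. Saa4 had a pair of matches, TTGCCAAA from base -245 to -238 and TTGAGCAA from base -52 to -45. No window of the 4 held the STAT motif TTCNNNGAA, which 7.02% of all windows hold, on either strand. No match overlapped another. Matches to an NF-kappaB motif are not reported here, so these motifs do not cover all the regulators named above. A match describes letters only, and the arrays did not measure binding.

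**Figure D1:**
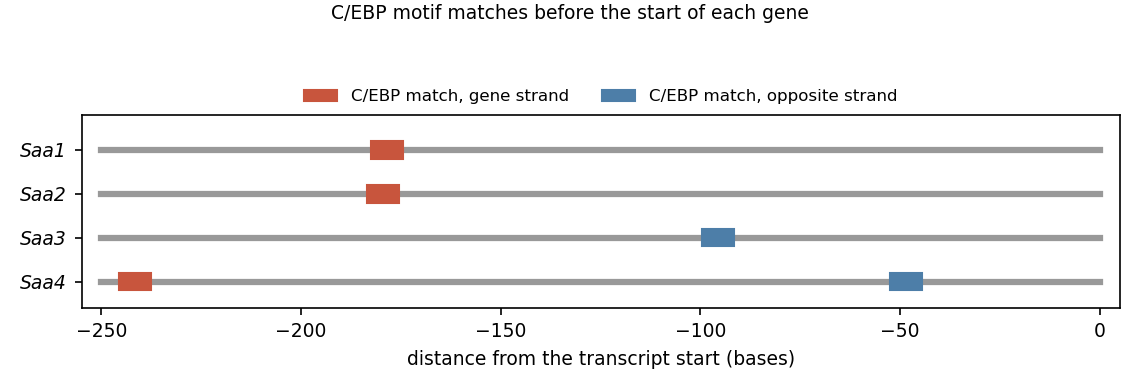
Matches to the C/EBP motif TTGCNNAA in the 250 bases before the transcript start of each gene (horizontal axis, bases from the start; 1 line per gene; colour gives the strand of the match). The matches of Saa1 and Saa2 lie 1 base apart, while Saa3 and Saa4 have theirs elsewhere.

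All 4 genes had higher values on every IL-6 array than on any saline array, and Saa1, Saa2 and Saa4 rose by the test. Saa2 rose 20.1-fold, Saa1 14.3-fold and Saa4 2.64-fold. Saa3 had a 1.35-fold difference that did not pass. Values are log2 expression per probe set, on which 1 unit is a 2-fold change. The test was limma, a linear model that steadies the variance of each gene with that of all others, with Benjamini-Hochberg adjustment over 19938 genes and a threshold of 0.05. Of all genes 77 were called higher, or 0.386%, beside 3 of the 4 members. The groups did not overlap, with IL-6 above saline, in 6.15% of all genes. Over the 4 members the median log2 difference was 2.62, and over all genes it was 0.003. The arrays hold whole liver, so more cells of a type and more RNA per cell cannot be told apart.

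Saa2, a main acute-phase form in plasma, was measured by probe set 10553274. It stood at 6.77, 6.20 and 6.35 on the log2 scale in saline replicates 1, 2 and 3. In IL-6 replicates 1, 2 and 3 it stood at 10.70, 10.49 and 11.12. The lowest IL-6 value lay 3.72 above the highest saline value. The means were 6.44 ± 0.30 and 10.77 ± 0.32 (SD, n = 3 each), which differ by 4.33 ± 0.18 on the log2 scale (± standard error, here and for every difference below; limma adjusted p = 4.37e-06). The 95% interval of the fold ran from 15.2 to 26.6. It was the largest difference of all genes.

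Saa1, the other main acute-phase form, was measured by probe set 10563611. Its log2 values were 5.06, 5.66 and 4.39 in saline replicates 1, 2 and 3. They were 8.84, 8.60 and 9.19 in IL-6 replicates 1, 2 and 3. The groups were 2.94 apart at their nearest values, and saline replicate 3 was the low array. The means were 5.04 ± 0.64 and 8.88 ± 0.30 (SD, n = 3 each), a log2 difference of 3.84 ± 0.28 (limma adjusted p = 0.000277). The 95% interval of the fold, from 9.34 to 22, was wider than that of Saa2 on the log scale, and the difference ranked 2nd of all genes. Saline replicate 3 lay under the 25th percentile of gene means (4.59), and background per probe set was not assessed.

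Saa4, which is known as the constitutive member, was measured by probe set 10563602. Its log2 values were 8.60, 8.90 and 8.45 in saline replicates 1, 2 and 3. They were 9.92, 9.89 and 10.35 in IL-6 replicates 1, 2 and 3. The groups were 0.99 apart at their nearest values, and IL-6 replicate 3 was the high array. The means were 8.65 ± 0.23 and 10.05 ± 0.25 (SD, n = 3 each), a log2 difference of 1.40 ± 0.15 (limma adjusted p = 0.00319), with a 95% interval of the fold from 2.10 to 3.32. The difference ranked 19th of all genes. When every probe set was tested, unnamed ones included, the call of Saa4 was lost (limma adjusted p = 0.083), while Saa2 (0.00212) and Saa1 (0.0327) passed.

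Saa3, the member also made by macrophages and adipocytes, was measured by probe set 10563597. Its log2 values were 6.20, 5.76 and 6.11 in saline replicates 1, 2 and 3. They were 6.49, 6.50 and 6.38 in IL-6 replicates 1, 2 and 3. The groups did not overlap, but only 0.18 separated the nearest values. The means were 6.02 ± 0.23 and 6.46 ± 0.07 (SD, n = 3 each). The log2 difference was 0.43 ± 0.11 (limma adjusted p = 0.337). The 95% interval of the fold ran from 1.13 to 1.61, and the difference ranked 149th of all genes. The 13 measured markers of Kupffer cells and macrophages averaged 6.41 to 6.53 over the saline arrays and 6.50 to 6.77 over the IL-6 arrays, and 0 of them passed in limma. Of these 13, 12 had positive differences (median 0.09). Under an unadjusted limma p of 0.05 were 2 of them, Timd4 (0.25 ± 0.10) and C1qb (0.23 ± 0.10), beside 1319 of all 19938 genes. The 6 measured adipocyte markers averaged 5.27 to 5.50 and 5.35 to 5.42, 2 of them below the 25th percentile and 0 called. Their part in the Saa3 values was not tested.

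**Figure D2:**
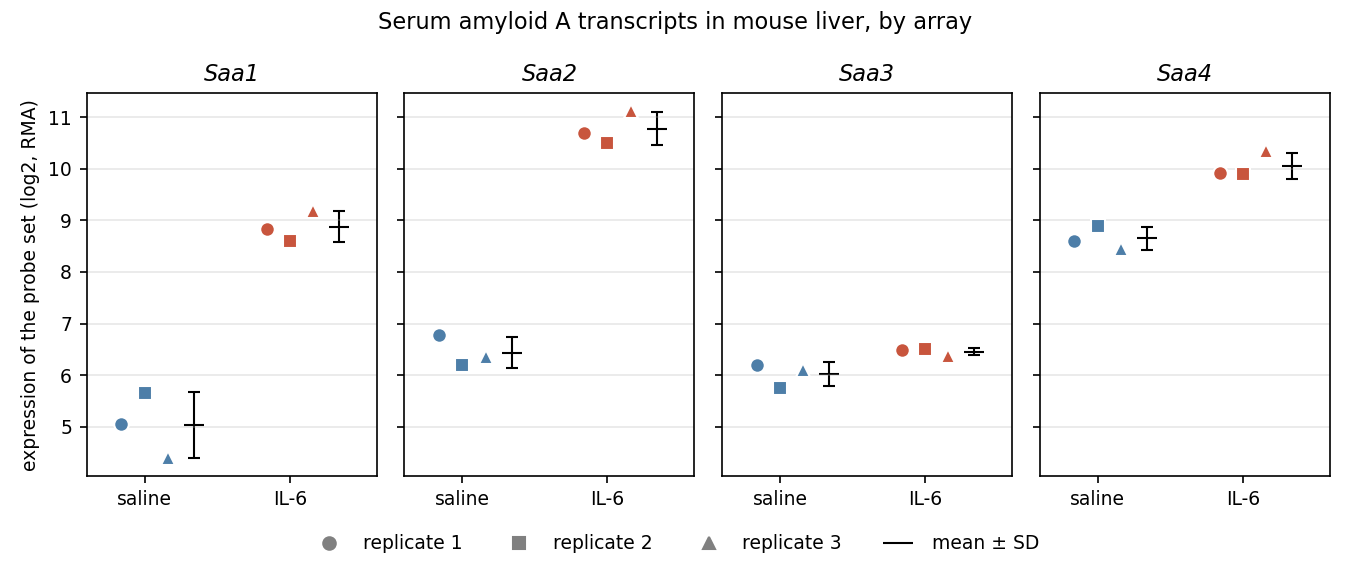
Log2 expression of the 4 genes (vertical axis) on each saline (blue) and IL-6 (red) array. Marker shape gives the replicate number, which the labels do not describe as a pairing, and bars show the mean and SD of 3 arrays. Saa2 and Saa1 are separated by 3.72 and 2.94 between the nearest arrays of the groups, Saa4 by 0.99 and Saa3 by 0.18.

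The responses were then set against each other within arrays, since the levels of different probe sets cannot be compared. For each of the 6 pairs of genes, the difference between their log2 values was taken on each array and compared between groups with an exact two-sided permutation test. With 3 arrays against 3 that test cannot give a p under 0.1, so no pair can pass. Sizes of these pairs are given with ordinary standard errors, pooled over the groups, and not with those of limma. The response of Saa2 exceeded that of Saa4 by 2.93 ± 0.26 and that of Saa3 by 3.9 ± 0.25 (exact permutation p = 0.1 each, adjusted 0.12). The response of Saa1 exceeded that of Saa4 by 2.44 ± 0.25 and that of Saa3 by 3.41 ± 0.52, with the same p. Saa4 exceeded Saa3 by 0.97 ± 0.32, also at that p. In these 5 pairs the within-array differences of the groups did not overlap.

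Saa2 and Saa1 could not be separated by response. Saa2 exceeded Saa1 by 0.49 ± 0.44 (exact permutation p = 0.4, adjusted 0.4). Within arrays, Saa2 minus Saa1 spanned 0.54 to 1.96 in saline and 1.86 to 1.93 after IL-6, so the groups overlapped. The spread lay in saline, and without saline replicate 2 the excess was 0.05. These probe sets report related transcripts, and whether each also binds the other's was not tested.

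The spread between saline arrays was large for the family. The SD of the 3 saline arrays was above that of 99.9% of all genes for Saa1, 97.5% for Saa2, 93.6% for Saa3 and 92.9% for Saa4. The median of this SD over genes was 0.10. Large values were not particular to the family, since other acute-phase genes ran from 0.0 (A2m) to 0.80 (Orm3). Over the IL-6 arrays the SD was 0.30 for Saa1, 0.32 for Saa2, 0.25 for Saa4 and only 0.07 for Saa3. The saline arrays did not order the family members alike. Saline replicate 2 was the highest of its group for Saa1 (0.63 above the mean) and Saa4 (0.25 above), and the lowest for Saa2 (-0.24) and Saa3 (-0.27). After IL-6 the order was shared by Saa1, Saa2 and Saa4. Replicate 3 lay 0.31, 0.35 and 0.29 above their means, while Saa3 was lowest there at -0.08. Saline replicate 2 and IL-6 replicate 3 are also the arrays that the second principal component of all genes (23.1% of variance) sets apart, and the labels name no batch. Without both, the log2 differences were 4.03 for Saa2, 4.0 for Saa1, 1.38 for Saa4 and 0.34 for Saa3, and the 3 calls held (limma adjusted p = 0.000286, 0.0014 and 0.00467).

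**Figure D3:**
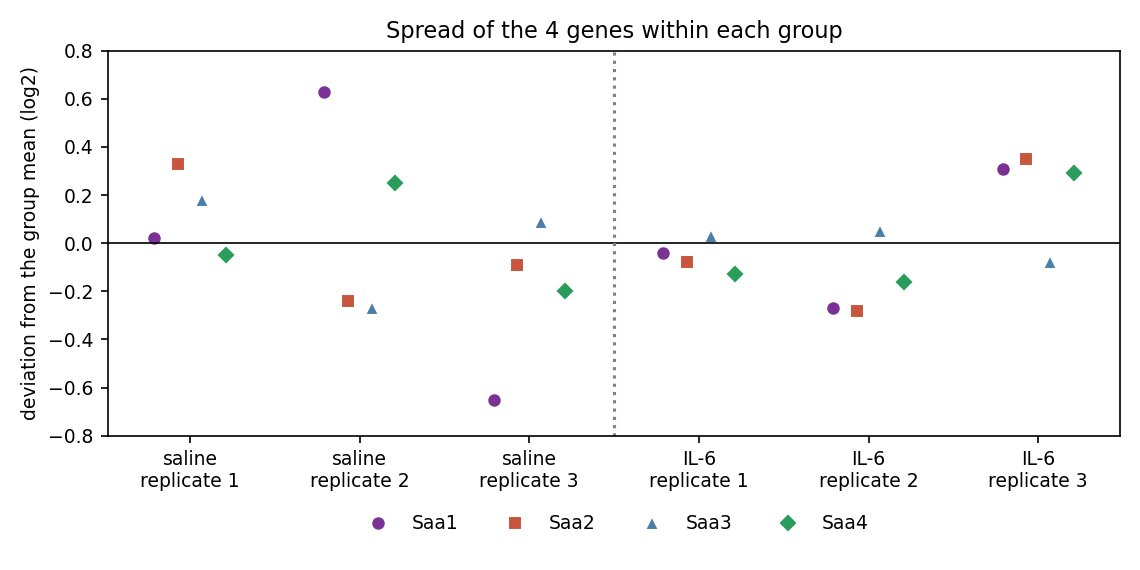
Deviation of each gene from the mean of its own group (vertical axis, log2) on the 6 arrays (horizontal axis); each symbol is 1 gene on 1 array. Saa1 spans -0.65 to 0.63 in saline, and Saa1, Saa2 and Saa4 are all highest in IL-6 replicate 3.

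Genes outside the family with the nearest profiles were found by the root-mean-square distance, in log2 units over the 6 arrays, between profiles taken relative to the saline mean. Nearest to Saa1 were the chemokine gene Cxcl1 (0.56), the metalloreductase gene Steap4 (0.57) and the gene of the feedback inhibitor Socs3 (0.59). Saa2 lay 0.56 from Saa1 and had the same 3 genes as its nearest outside the family, in the order Steap4 (0.79), Cxcl1 (0.83) and Socs3 (0.86). Saa4 lay 0.76 from Saa3, 1.74 from Saa1 and 2.09 from Saa2. Its nearest genes outside the family were Zfp36 (0.16), which promotes decay of cytokine mRNAs, the transcription factor gene Jun (0.17) and the serpin gene Serpina10 (0.18). These were picked as the nearest of all other genes, so their being nearer than the family members says nothing about the family. The distance counts the size of a response as well as its shape over the arrays.

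Lists of genes around the family were read beside it, by their counts in limma and their median log2 difference. Known regulators of Saa promoters held 1 called gene of 16 and a median of 0.05, and 3 were under an unadjusted limma p of 0.05. The called gene was Stat3, which encodes the transcription factor activated by IL-6, with a difference of 0.52 ± 0.09 (limma adjusted p = 0.04996). It sits at the threshold, and 5 of the 6 fits that omit 1 array did not call it (lost in 10 of 18 alternatives, limma adjusted p from 0.0117 to 0.41). Cebpb and Rel, which encode a C/EBP and an NF-kappaB factor, had 0.38 ± 0.12 and 0.21 ± 0.09 and did not pass (limma adjusted p = 0.522 and 0.727). Of the 14 genes of the IL-6 signalling chain 3 rose, Socs3 (3.15 ± 0.11), Cish (1.22 ± 0.16), another feedback inhibitor, and Stat3. The Socs3 value is that of its brightest probe set, and the mean of its probe sets gave 2.47. The median of that list was 0.10, and 4 of its genes were under an unadjusted limma p of 0.05. The call of Cish was lost without saline replicate 1 or 3 and when every probe set was tested (limma adjusted p up to 0.152).

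The carriers, receptors and proteases of serum amyloid A held no called gene. Of 17 HDL apolipoproteins and lipid-handling genes 0 were called (median 0.04), with Apoa1, the main HDL apolipoprotein, at 0.04 ± 0.07. The smallest p-values there belonged to the phospholipid transfer protein gene Pltp (0.58 ± 0.22), Apom (-0.16 ± 0.09) and Apoa2 (0.10 ± 0.08). Of 10 receptor and uptake genes 0 were called (median 0.02), the scavenger receptor gene Cd36 having 0.38 ± 0.12. Ager and Olr1, which encode further receptors, had 0.10 ± 0.11 and -0.14 ± 0.09. Of 8 protease genes 0 were called (median -0.04), with Elane at -0.14 ± 0.09, Ctsl at -0.12 ± 0.10 and Ctsg at -0.09 ± 0.13. At an unadjusted limma p under 0.05, 1 carrier gene, 1 receptor gene and 0 protease genes passed, and 1319 of all 19938 genes.

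The other acute-phase genes rose in part. Of 22 measured 6 were called, 21 had positive differences, 17 were under an unadjusted limma p of 0.05, and the median was 0.39. Of all 19938 genes, 1319 were under that p in either direction, and the median was 0.003. Steap4 rose by 3.23 ± 0.12, Orm2, an orosomucoid, by 2.44 ± 0.23, Lcn2, which binds iron siderophores, by 1.72 ± 0.22 and the metallothionein Mt1 by 1.04 ± 0.17. The other called genes, Fga (0.98 ± 0.12) and Serpina3n (0.95 ± 0.12), are named after their values were seen. So are Orm3 (1.80 ± 0.40) and Mt2 (1.46 ± 0.29), which lay above Mt1 but were not called (limma adjusted p = 0.187 and 0.103). Mt1 was called in only 1 of the 6 fits that omit an array, the one without saline replicate 2, and the call of Serpina3n was lost without IL-6 replicate 1 or 3. Testing every probe set ended the calls of Orm2, Lcn2, Mt1, Fga and Serpina3n (limma adjusted p from 0.0732 to 0.254), and a robust variance prior with a trend those of Lcn2 and Mt1. The differences of Saa2 and Saa1 lay above the highest of this list, that of Saa4 above 17 of its 22 genes and that of Saa3 above 12.

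**Figure D4:**
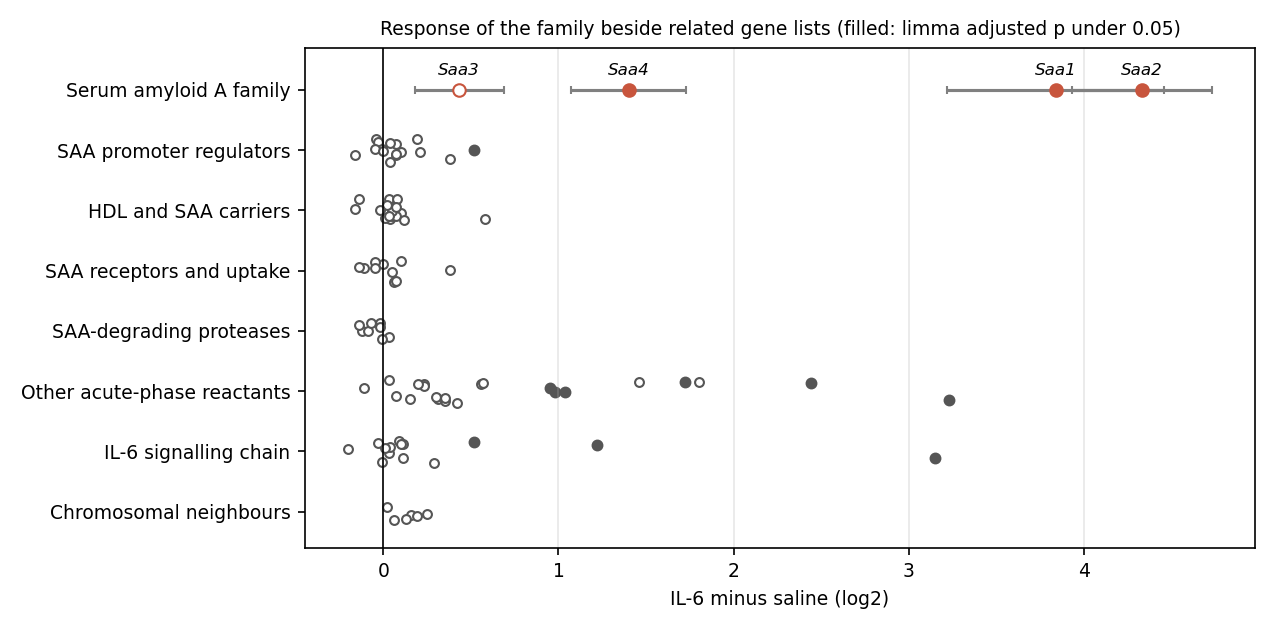
IL-6 minus saline on the log2 scale (horizontal axis) for the 4 family members, with 95% intervals, and for the measured genes of 7 lists (1 point per gene; filled points passed the limma test; vertical scatter within a row has no meaning). Saa1 at 3.84 and Saa2 at 4.33 lie to the right of every listed gene.

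Genes beside the cluster were not called. Of the 5 RefSeq neighbours on each side, 6 were measured, 0 passed in limma and all 6 differences were positive, with a median of 0.14. Ldha, which encodes a lactate dehydrogenase subunit, had 0.25 ± 0.08 (limma adjusted p = 0.485). Saal1, whose name resembles the family, had 0.19 ± 0.09 and Tph1 had 0.16 ± 0.07 (limma adjusted p = 0.753 and 0.764). At an unadjusted limma p under 0.05, 2 of the 6 passed, beside 1319 of all 19938 genes.

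Hepatocyte markers, which define the labelled tissue, were high on every array. The 10 hepatocyte markers averaged 12.19 to 12.28 over the saline arrays and 12.20 to 12.27 over the IL-6 arrays, with 0 called. The 12 neutrophil markers averaged 4.14 to 4.22 and 4.08 to 4.30, 8 of them below the 25th percentile. Of these S100a8 was called (0.65 ± 0.09 from a saline level of 3.60). That call held in only 1 of the 6 fits that omit an array, the one without IL-6 replicate 3. Of the 12 neutrophil markers 6 had positive differences (median 0.01). At an unadjusted limma p under 0.05, 1 was positive, S100a8, and 1 negative, Ly6g (-0.27 ± 0.10), beside 1319 of all 19938 genes. The 8 endothelial markers averaged 7.55 to 7.67 and 7.5 to 7.7, with 0 called.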

How the data were processed

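Biotin-labelled RNA of mouse liver was run on 6 Affymetrix arrays of a single colour. The deposited values are log2 expression per probe set, made by the authors with RMA (background correction, quantile normalization and summary over probes), per the submitters' processing notes. Its settings and the build of the array design: not given in the sources used here. Medians of the arrays lay between 5.42 and 5.48. Quantile normalization and probe summary can compress large changes, so folds are on the scale of these arrays.

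Gene names came from the platform table: 21789 probe sets had 1 symbol, 1621 several, and 12146 are unnamed here. The 21698 matched by gene ID to RefSeq (GRCm38.p6) kept their symbols. Where a gene had more than 1 probe set (999 genes), the brightest on average was used. Groups were compared with limma 3.58.1 (R 4.3.3; lmFit, eBayes, two-sided, Benjamini-Hochberg over 19938 genes). No dim gene was removed. All 4 members pass both filters tried on mean level, but Saa1, with a saline mean of 5.04, passes the one at the median (5.77) only through its IL-6 arrays, so that filter says nothing on its stability. The fit was also run on data simulated from its own variance model, so that run does not bear on the spread among these arrays. Standard errors of log2 differences had a median of 0.089, and the number of arrays limits the precision. Promoters were aligned with biopython 1.88, and figures drawn with matplotlib 3.10.9.

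The members, lists, tests and alternatives were chosen with earlier results of these data known. Named were the members, up to 4 called genes per list (filled to 3 by smallest p), the 3 nearest profiles of each called member, and Saal1. Values of Apoa1, A2m, Orm3, Mt2, Fga and Serpina3n were given outside that rule. List genes without a probe set of 1 symbol were not analysed here. Further settings were median centring, cyclic loess, a second quantile normalization, filters at the 25th percentile and the median, averaging over a gene's probe sets, testing all probe sets, a trended prior variance (also robust), weights per array, a block for replicate number, and arrays left out.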

Additional observations from a re-analysis of the deposited data

How the results depend on the processing

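Saa2, Saa1 and Saa4 kept their direction and their calls in each of 18 alternatives, except that Saa4 lost its call when every probe set was tested (a log2 difference of 1.40, limma adjusted p = 0.083). Their differences ran from 4.03 to 4.50, from 3.52 to 4.16 and from 1.26 to 1.53. Saa3 was positive in all 18 (0.30 to 0.52) and passed in none (limma adjusted p from 0.176 to 0.659). In place of 77 higher and 7 lower genes, testing every probe set called 16 and 1, and leaving out both arrays that the second principal component sets apart called 31 and 2. In the first, standard errors also rose (Saa1 from 0.28 to 0.32, Saa2 from 0.18 to 0.21), and what lowered the counts was not tested. The filter at the median, 1 of the 18, keeps Saa1 only through its IL-6 arrays. Leaving out 1 array gave 45 to 67 higher and 3 to 5 lower genes. With the replicate block, 59 genes were higher and 6 lower, and Saa2, Saa1 and Saa4 passed (limma adjusted p = 2.64e-05, 0.00147 and 0.0131). Deviations of equally numbered arrays correlated at 0.08, -0.12 and -0.09 and those of differently numbered arrays at -0.10 to 0.18. With 3 arrays per group, such correlations cannot decide whether the numbers pair the samples, and the labels do not say. Saa2 exceeded Saa1 by 0.05 to 0.77 over 10 alternatives (exact permutation p from 0.1 to 0.8). The number of arrays limits what small differences such as that of Saa3 can show, and signal over background per probe set was not assessed, because scanner values were not used here.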
